A study of Homo sapiens with 4 samples.

Results

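EPHB6, an Eph receptor gene, was followed together with 8 related genes after knockdown of METTL3 in PC3 cells, a widely used line from human prostate cancer. The 9 genes were the receptors EPHA2, EPHB2, EPHB3, EPHB4 and EPHB6 and the ephrins EFNA1, EFNB1, EFNB2 and EFNB3, found by gene name among the 60544 genes of the deposited count table. They were chosen by family with the log2 fold changes of the same sh812 against shNC comparison known, and EPHB6 was chosen by its rise there. Their values are therefore given as a description, with no p-value, and nothing is read from whether the fit over all genes called them. Poly(A) RNA was sequenced from 2 libraries labelled shNC, the control, and 2 libraries labelled sh812, all from PC3 cells grown in serum-containing medium. The series names METTL3 knockdown against control, and sh812 was read as the knockdown because it is the only other label. METTL3, the catalytic subunit of the enzyme complex that writes the N6-methyladenosine (m6A) mark on messenger RNA, had counts of 1682 and 1379 under shNC and of 269 and 313 under sh812. The labels name 1 cell line and 1 short hairpin label per arm, and do not say whether the replicates were separate cultures, so the spread between libraries may be technical.

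Eph receptors form a large family of receptor tyrosine kinases, and the ephrins that bind them are held on the membrane of a neighbouring cell. A-class ephrins are attached by a lipid anchor and B-class ephrins span the membrane, so that contact can signal into the receptor cell and, through the B-class ephrins, back into the ligand cell. The signals act mainly on the actin cytoskeleton and on adhesion, and sort cells at tissue borders. EPHB6 differs from most of the family in that its kinase domain lacks catalytic activity, and it signals through other Eph receptors and kinases of the Src family. EPHA2 was the most abundant family member in these PC3 libraries.

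METTL3-containing complexes methylate adenosines in a short sequence context, of which GGACT is the best-known form. The sequence was searched in 1 annotated protein-coding transcript per gene (GENCODE 29, GRCh38). The EPHB6 transcript of 4011 nucleotides held 11 matches, 9 of them in its coding sequence, or 2.74 per kb. The median over 19626 coding genes was 0.934 per kb, with at least 1 match in 88.0% of the transcripts, and EPHB6 stood at percentile 96.9. A match is only a sequence, and m6A was not measured in these libraries. Coding matches 1, 5 and 9 of EPHB6 are shown for their sequence context, with the motif in capitals and 10 bases on each side. Counted from the first coding base, the motifs start at positions 574, 1877 and 2884.
EPHB6 coding match 1: gcagcgggctGGACTgcaactgaac
EPHB6 coding match 5: aagcggcgtgGGACTggctacacag
EPHB6 coding match 9: ttcagccattGGACTggagtgctac

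In its number of CpG dinucleotides, the start region of EPHB6 was below those of the relatives for which one was found. RefSeq start regions (250 bases before to 50 after the annotated start, GRCh38.p14) were found for 20 of the 22 Eph and ephrin genes, EFNB3 and EPHA10 being the genes without one. That of EPHB6 held 3 CpG dinucleotides, the lowest number of the 20, against 12 to 51 in the other 19 and a median of 14 over 27305 genes, of which 19.0% had fewer than EPHB6. Its GC content was 48.0%, within the range of 43.0% to 85.3% of the others. The GC box GGGCGG, searched on both strands, was present once in EPHB6, in 18 of the other 19 genes and in 44.6% of all start regions. The RefSeq start lies 7695 bases inside the GENCODE gene, and which start PC3 cells use was not measured. The EPHB6 region is printed beside that of EPHB4, another EphB receptor on chromosome 7, with each CpG in capitals. The EPHB6 region is chr7:142862506-142862805 on the plus strand, with 3 CpG, and the EPHB4 region is chr7:100827474-100827773 on the minus strand, with 36 CpG.
EPHB6 start region: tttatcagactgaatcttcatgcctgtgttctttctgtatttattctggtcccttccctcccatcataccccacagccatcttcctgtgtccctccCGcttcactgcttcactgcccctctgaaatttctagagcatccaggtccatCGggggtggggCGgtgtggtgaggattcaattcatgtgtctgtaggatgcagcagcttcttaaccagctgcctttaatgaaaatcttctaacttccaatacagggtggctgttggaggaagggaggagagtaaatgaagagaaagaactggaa
EPHB4 start region: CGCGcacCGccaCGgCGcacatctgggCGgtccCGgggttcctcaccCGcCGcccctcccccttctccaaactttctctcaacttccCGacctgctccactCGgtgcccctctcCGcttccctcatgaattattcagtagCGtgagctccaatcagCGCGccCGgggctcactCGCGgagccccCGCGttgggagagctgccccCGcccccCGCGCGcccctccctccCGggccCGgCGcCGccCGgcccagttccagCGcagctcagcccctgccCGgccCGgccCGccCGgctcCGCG

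Library totals ran from 31450648 to 37041330 counts. Levels are given in CPM, counts scaled to a common library size of 1e6 after TMM scaling, which corrects for differences in library composition. The epithelial markers KRT8, KRT18, KRT19, EPCAM and CDH1 were all above 10 CPM on average, with a summed level of 816 to 921 CPM in shNC and 956 to 1017 CPM in sh812, and KRT18, EPCAM and CDH1 were called as higher (edgeR, adjusted p under 0.05 over all genes tested). The luminal prostate genes KLK2 and KLK3 had no count in any library. Of 9 T cell markers, 8 averaged under 1 CPM and CD3D, CD3E, CD3G and CD2 had no count in any library. The summed level of the T cell list was 2.34 to 2.79 CPM in shNC and 3.99 to 4.67 CPM in sh812, and most of it came from LCK, a Src-family kinase, at 1.79 and 1.83 CPM in shNC and 3.48 and 3.94 CPM in sh812. Summed endothelial markers were at 43.0 to 43.8 CPM in shNC and 44.6 to 50.9 CPM in sh812, nearly all from PECAM1 and KDR, with CDH5 and VWF under 1 CPM. The sum held opposite changes: PECAM1 went from 23.7 to 35.7 CPM (log2 fold change 0.59; edgeR adjusted p = 0.000222) and KDR from 18.4 to 11.4 CPM (log2 fold change -0.69; edgeR adjusted p = 0.000343). Summed fibroblast markers were at 55.1 to 57.9 CPM in shNC and 49.0 to 54.9 CPM in sh812, with COL1A1 the highest of them, COL1A2 called as higher and COL3A1 as lower. The part of these marker differences in the results on Eph genes was not tested.

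EPHB6 was scarce in control cells and rose in the sh812 libraries. Its counts were 142 in shNC replicate 1, 94 in shNC replicate 2, 331 in sh812 replicate 1 and 284 in sh812 replicate 2. These correspond to 3.74 and 2.97 CPM in shNC and 9.43 and 7.94 CPM in sh812. Both sh812 libraries lay above both shNC libraries, and the gap between the groups was wider than the gap within either. The mean went from 3.36 ± 0.545 CPM in shNC to 8.68 ± 1.06 CPM in sh812 (SD, n = 2), a ratio of 2.59, with a fitted log2 fold change of 1.36 (SE 0.18). The gene (ENSG00000106123) spans chromosome 7 from 142855061 to 142871094 on the plus strand of GRCh38, and no other GENCODE 29 gene overlaps its exons. In bulk RNA, more cells with the transcript and more transcript per cell cannot be told apart.

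EFNB3, a B-class ephrin best known from axon guidance, moved the other way. Its counts were 825 and 686 under shNC, and 390 and 621 in sh812 replicates 1 and 2. On the CPM scale the shNC libraries were nearly equal at 21.8 and 21.7, while the sh812 libraries stood apart from each other at 11.1 and 17.4. Both sh812 libraries were below both shNC libraries. The mean fell from 21.7 ± 0.042 to 14.2 ± 4.41 CPM (SD, n = 2). The fitted log2 fold change was -0.61 (SE 0.14). Most of that size came from sh812 replicate 1: without it the value was -0.32, and without sh812 replicate 2 it was -0.97. EFNB3 (ENSG00000108947) lies on chromosome 17 from 7705202 to 7711378, with no annotated exon of another gene over its own.

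**Figure D1:**
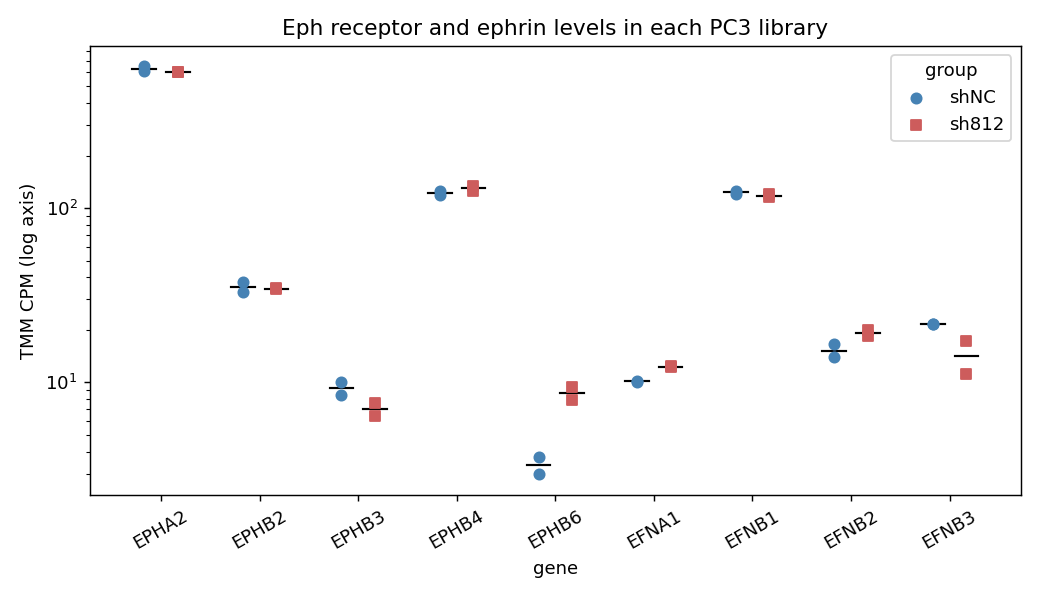
TMM CPM (log axis) of the 9 genes in each library, with shNC as circles, sh812 as squares and the group mean as a bar. EPHB6 lies at 2.97 and 3.74 CPM in shNC and at 7.94 and 9.43 CPM in sh812, and the EFNB3 squares at 11.1 and 17.4 CPM are the most widely spaced replicates.

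In the fit over all genes (edgeR's quasi-likelihood test, Benjamini-Hochberg adjusted p under 0.05 over 16802 genes), 2 of the 9 genes were called, EPHB6 as higher and EFNB3 as lower. Of all genes tested, 10.8% were called, 5.43% as higher and 5.42% as lower. The choice of the genes used this comparison, so nothing is read from the count, and EFNB3 was not called without sh812 replicate 1. All 9 genes passed the low-count filter. The CPM groups did not overlap in 8 of the 9 genes, against 53.6% of all genes tested, with 4 higher and 4 lower in sh812. On the log2 scale the median change was -0.03 for the 9 genes and -0.01 for all genes.

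Among the other receptors, the abundant ones stayed close to their control level. EPHA2, which binds A-class ephrins, had 613 and 651 CPM in shNC and 603 and 602 CPM in sh812. Its log2 fold change was -0.07 (SE 0.06). EPHB4, the receptor for ephrin-B2 in blood vessel formation, had 118 and 125 CPM in shNC and 126 and 134 CPM in sh812. Its log2 fold change was 0.10 (SE 0.06), and the smallest gap between the groups, 125 against 126 CPM, was narrower than the gap between replicates. Exons of SLC12A9, on the other strand, cover 69 bases of EPHB4. EPHB2, which acts in axon guidance and in the ordering of intestinal epithelium, had 33.1 and 37.5 CPM in shNC and 34.6 and 34.5 CPM in sh812. Its groups overlapped, and its log2 fold change was -0.03 (SE 0.09), with a change of sign to 0.07 without shNC replicate 2. EPHB3, which works beside EPHB2 in the intestine, had 8.44 and 10.1 CPM in shNC and 6.38 and 7.66 CPM in sh812. Its groups did not overlap, with a log2 fold change of -0.40 (SE 0.15). Leaving out shNC replicate 1 gave -0.53, and leaving out shNC replicate 2 gave -0.26.

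Among the other ligands, EFNB1 and EFNB2 are B-class ephrins that bind EphB receptors, and EFNA1 is an A-class ligand of EPHA2. EFNB1, the most abundant ephrin, had 121 and 126 CPM in shNC and 116 and 120 CPM in sh812, with a log2 fold change of -0.06 (SE 0.06). EFNB2, the partner of EPHB4 in vessels, had 13.9 and 16.6 CPM in shNC and 18.5 and 20.1 CPM in sh812. Its groups did not overlap, and its log2 fold change was 0.34 (SE 0.12). Leaving out shNC replicate 1 moved it to 0.22, and leaving out the other shNC library to 0.48. EFNA1 had 10.2 and 10.1 CPM in shNC and 12.3 and 12.4 CPM in sh812. Its replicates were within 0.1 CPM of each other in both groups, and its log2 fold change was 0.28 (SE 0.13). The fitted changes of these 3 ligands thus ran from -0.06 to 0.34 on the log2 scale. An antisense gene, AL138689.2, overlaps 1313 bases of the EFNB2 exons and had 0 to 10 counts in a library.

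The make-up of the EphB and ephrin-B pools was compared per length, as CPM per kb of annotated exons, since longer transcripts give more counts. In shNC the order of the 9 genes was EPHA2 at 152 ± 6.36, EFNB1 at 37.2 ± 1.06, EPHB4 at 18.9 ± 0.694, EFNB3 at 6.74 ± 0.0129, EFNA1 at 4.002 ± 0.0235, EFNB2 at 3.04 ± 0.373, EPHB2 at 2.82 ± 0.248, EPHB3 at 2.05 ± 0.262 and EPHB6 at 0.631 ± 0.102 CPM per kb (SD, n = 2). On these lengths EFNB2 and EPHB2 did not differ beyond their spread, and the other neighbours in this order did. The order depends on the length used. For EPHB2 the union of annotated exons is 12516 bases and the transcript searched for GGACT 3677, against 6435 and 4329 for EPHB4. Levels per transcript length were not computed, so the place of EPHB2 in the order is uncertain. In sh812, EPHA2 was at 145 ± 0.182, EFNB1 at 35.6 ± 0.760, EPHB4 at 20.2 ± 0.918 and EPHB2 at 2.76 ± 0.00892 CPM per kb (SD, n = 2). EPHB6 at 1.63 ± 0.198 CPM per kb and EPHB3 at 1.55 ± 0.199 CPM per kb (SD, n = 2) did not differ beyond their spread. EFNA1, EFNB3 and EFNB2 in sh812 were at 4.86 ± 0.0124, 4.42 ± 1.37 and 3.85 ± 0.214 CPM per kb (SD, n = 2), and the spread of EFNB3 covered both of the others.

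EPHB6 made up 2.98% and 2.22% of the summed EphB receptor level per length under shNC, and 6.95% and 5.57% under sh812. EPHB4 held 77.0% to 77.9% of that sum in shNC and 76.7% to 77.8% in sh812. The sum itself was 23.6 and 25.2 CPM per kb in shNC and 25.5 and 26.8 CPM per kb in sh812. The size of each share depends on the union of exons used as length, which is long for EPHB2. The larger share of EPHB6 thus stood beside a nearly constant share of EPHB4 and a smaller one of EPHB3, at 8.38% ± 0.698 in shNC and 5.92% ± 0.554 in sh812 (SD, n = 2). In the B-class ephrins, EFNB3 held 14.7% and 14.0% of the sum in shNC and 8.16% and 11.8% in sh812. EFNB2 held 6.03% and 6.88% in shNC and 8.75% and 8.77% in sh812.

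**Figure D2:**
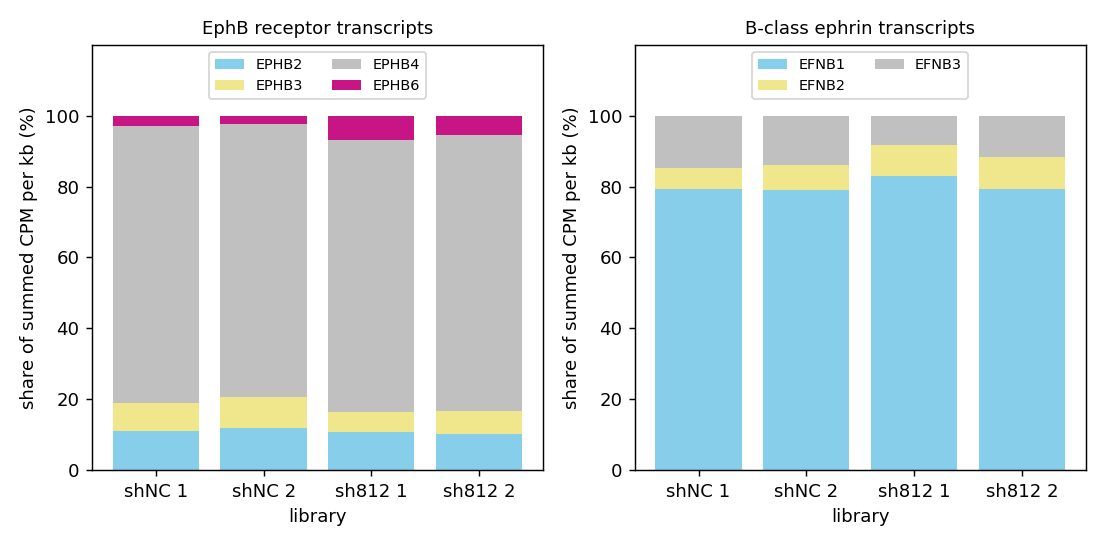
Share of the summed CPM per kb taken by each EphB receptor (left) and each B-class ephrin (right) in the 4 libraries, in percent. EPHB1, at most 0.05% of the receptor sum, is not drawn, and EPHB6 takes 2.22% to 2.98% in shNC and 5.57% to 6.95% in sh812.

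The 13 family genes outside this group were tested as a separate list. Of these, 10 passed the low-count filter, and EPHA3 was the only one called, as higher, in edgeR's quasi-likelihood test. That is 10.0% of the 10, against 10.8% of all genes called in either direction and 5.43% as higher. EPHA3, an A-class receptor for EFNA5 and other A-class ephrins, had 138 and 118 counts in shNC and 256 and 264 counts in sh812. The libraries of each group were close together, at 3.64 and 3.73 CPM in shNC and 7.29 and 7.38 CPM in sh812. The mean rose from 3.68 ± 0.0657 to 7.33 ± 0.0596 CPM (SD, n = 2). The log2 fold change was 0.99 (SE 0.18; edgeR adjusted p = 0.000552), and both sh812 libraries were higher. Its log2 fold change was between 0.95 and 1.04 in the 10 alternatives tried, and it was called in each. EPHA3 (ENSG00000044524) lies on chromosome 3 from 89107524 to 89482134.

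The other tested family genes had small or uncertain differences. EPHA4, a receptor for both ephrin classes, had 6.38 and 4.40 CPM in shNC and 4.27 and 3.63 CPM in sh812, with a log2 fold change of -0.45 (SE 0.20; edgeR adjusted p = 0.165), and was called only without shNC replicate 2 (-0.69). EPHA1, which lies on the same chromosome as EPHB6, had 1.71 and 2.09 CPM in shNC and 2.51 and 2.93 CPM in sh812. Its log2 fold change was 0.52 (SE 0.28; edgeR adjusted p = 0.249). EFNA4, the most abundant A-class ephrin here, had 13.0 and 13.8 CPM in shNC and 14.6 and 18.0 CPM in sh812, with a log2 fold change of 0.29 (SE 0.12; edgeR adjusted p = 0.146). EPHA5, EPHA6, EPHA7, EFNA3 and EFNA5 had log2 fold changes from -0.06 to 0.27. EPHA10 had 8 to 24 counts per library and a log2 fold change of 0.48 (SE 0.67). EPHA8, EPHB1 and EFNA2 had at most 6 counts in a library and were not tested. No gene of the list was called as lower, where edgeR gave 1 at an unadjusted p under 0.05 and DESeq2 called 0.

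**Figure D3:**
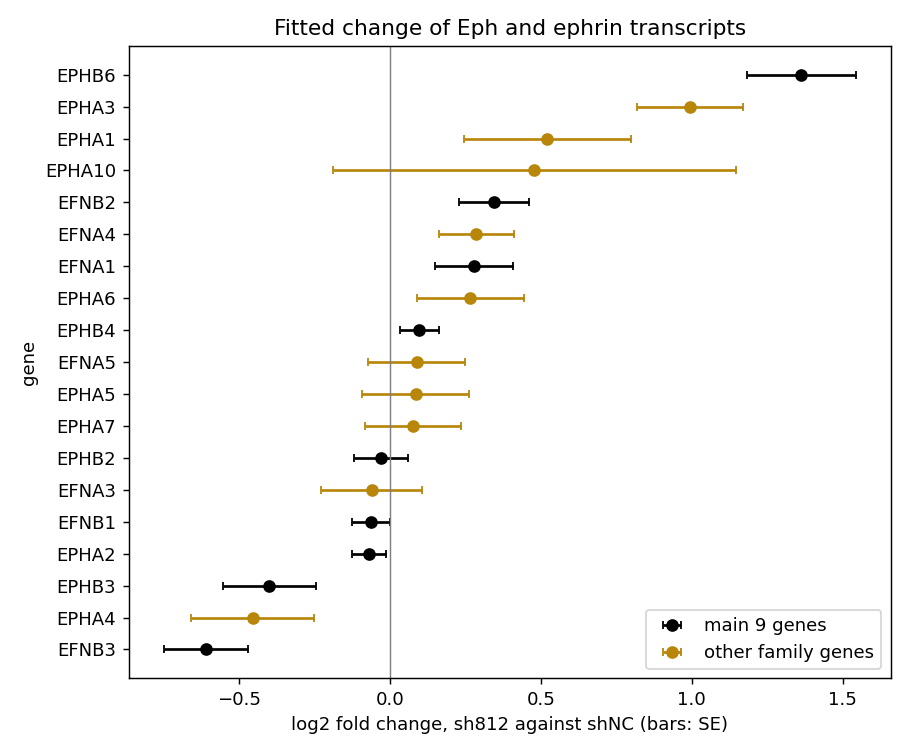
Fitted log2 fold change of sh812 against shNC for the 19 Eph and ephrin genes that passed the low-count filter, with SE as bars. EPHB6 (1.36) and EPHA3 (0.99) lie farthest to the right and EFNB3 (-0.61) farthest to the left.

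GGACT density is set beside the changes within the family as a description, and the part of the motif in them was not tested. Of the 22 family transcripts, 17 were above the median density of all coding genes, among them 8 of the 9 chosen genes. EPHB3 had 12 matches, or 2.83 per kb, and EPHB2 had 10 matches, or 2.72 per kb, about the density of EPHB6, with log2 fold changes of -0.40 and -0.03. EFNB3 had 3 matches, none in its coding sequence, or 0.931 per kb. EPHA3 had 9 matches, all in its coding sequence, or 1.55 per kb. Over the 19 genes tested, which share libraries and related sequences, Pearson's r between density and log2 fold change was 0.20 and Spearman's rho was 0.19, given as a description.

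**Figure D4:**
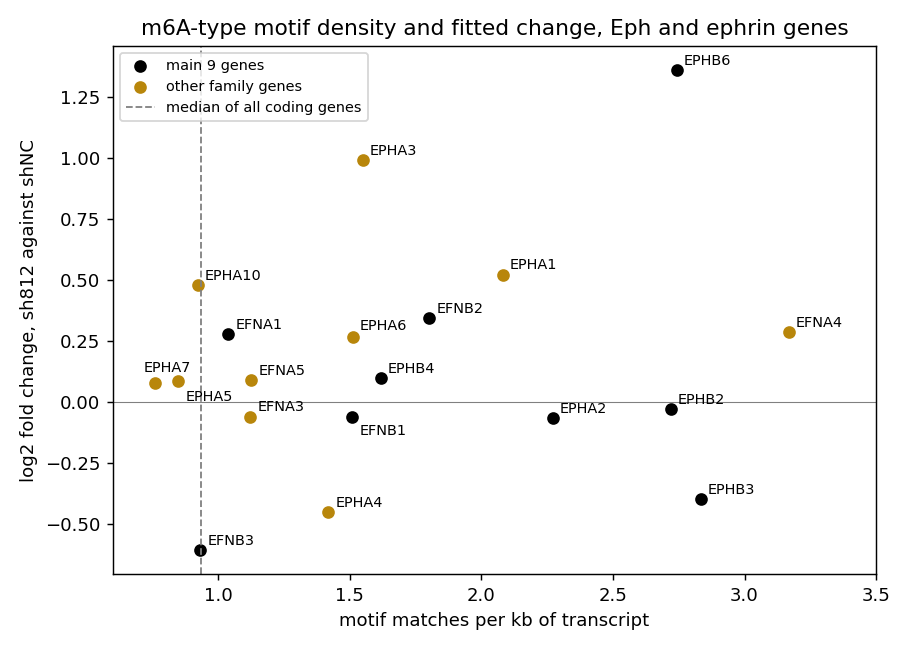
Density of the m6A-type motif in the annotated transcript (matches per kb) against the fitted log2 fold change of the 19 genes tested, with the median density of all coding genes as a dashed line. EPHB6 (1.36), EPHB2 (-0.03) and EPHB3 (-0.40) have similar densities between 2.72 and 2.83 per kb and different changes.

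Proteins that work with Eph receptors were covered by a list of 52 genes, of which 50 were tested. In edgeR's quasi-likelihood test 4 were called as higher and 1 as lower, which is 10.0% of the list against 10.8% of all genes, and the median log2 fold change was -0.02. Of the 4 higher genes, 3 are small GTPases or act on them. CDC42, a small GTPase that drives actin protrusions, had 338 ± 11.96 CPM under shNC and 396 ± 19.3 CPM under sh812 (SD, n = 2), and its log2 fold change was 0.23 (SE 0.06; edgeR adjusted p = 0.0129). RIN1, a Rab5 exchange factor that binds Ras and ABL kinases, had 32.1 ± 1.01 and 40.4 ± 0.829 CPM in the same order (SD, n = 2), and its log2 fold change was 0.33 (SE 0.09; edgeR adjusted p = 0.0126). NGEF, or ephexin, a guanine nucleotide exchange factor that binds EphA receptors, had 53.0 ± 3.26 and 63.4 ± 6.68 CPM (SD, n = 2), and its log2 fold change was 0.26 (SE 0.08; edgeR adjusted p = 0.0403). The fourth was ACP1, a low-molecular-weight tyrosine phosphatase that acts on Eph receptors, with a log2 fold change of 0.19 (edgeR adjusted p = 0.0494). NCSTN, a subunit of the gamma-secretase that cuts B-class ephrins and Eph receptors in the membrane, was lower, with a log2 fold change of -0.20 (edgeR adjusted p = 0.0492). These 5 genes were picked by their call, and the groups did not overlap in any of them, as in 53.6% of all genes tested. GENCODE 29 has exons of at least 1 other gene over part of each, and their counts may hold reads of that gene or lack shared reads. The overlap was largest in CDC42, at 2137 of 3598 exonic bases, in part with AL031281.2, a protein-coding gene on the same strand. All 5 lost their call when either sh812 library was left out, in fits where 313 and 424 genes were called in place of 1822. DESeq2 did not call NGEF and NCSTN, and library size alone did not call NGEF and ACP1.

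The called partners were also counted by role. Of 12 tested kinases and phosphatases 1 was called, of 15 exchange factors and GTPases 3, and of 5 proteases 1. Of all genes tested, 10.8% were called, and whether any role differs from that share was not tested. None of the 18 adaptors and PDZ proteins was called in edgeR, where 4 had an unadjusted p under 0.05, or in DESeq2. For SRC and FYN, Src-family kinases that act beside EPHB6, the log2 values were 0.03 and 0.01 (edgeR adjusted p = 0.808 and 0.969). YES1 and LYN, of the same family, were at -0.07 and 0.03 (edgeR adjusted p = 0.474 and 0.886). LCK, a Src-family kinase outside this list, went from a mean of 1.81 CPM in shNC to 3.71 CPM in sh812. It was called as higher, with a log2 fold change of 1.03 (SE 0.25; edgeR adjusted p = 0.00948). ADAM10, which sheds ephrins, had a log2 fold change of -0.09 (edgeR adjusted p = 0.471), and MMP14, which cuts EPHA2, one of -0.11 (edgeR adjusted p = 0.256).

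The genes next to EPHB6 on chromosome 7 were examined because TRBC2, a T cell receptor constant segment, lies upstream of it. TRBC2 had 131 and 143 counts in shNC and 533 and 495 counts in sh812, with a log2 fold change of 1.87 (SE 0.16; edgeR adjusted p = 9.10e-09). Its near-identical copy TRBC1 can share its reads. The other 5 nearest annotated genes, TRBJ2-7, TRBV30, TRPV6, AC245427.1 and TRPV5, had at most 10 counts in a library and were not tested. Within 1 Mb of EPHB6, a window chosen after the values were seen, 14 other genes were tested and TRBC2 was the only one called. That is 1 of 14, where 10.8% of all genes tested were called. The median log2 fold change of the 14 was 0.11, against -0.01 for all genes. GSTK1 and CASP2, neighbours farther downstream, had 2445 and 2121 against 2527 and 2733 counts, and 1963 and 1732 against 2054 and 1942 counts.

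The 5 genes whose log2 CPM profile over the 4 libraries lay closest to that of EPHB6, among 10838 genes with a mean of at least 5 CPM, were TBC1D30, CALB1, CCNA1, NTSR1 and FBXL16. The likeness is the Euclidean distance of profiles centred on their mean, in log2 units. TBC1D30, a Rab GTPase-activating protein, was at a distance of 0.07, with 3.24 and 2.47 CPM in shNC and 8.26 and 6.59 CPM in sh812. Like CCNA1 and FBXL16, it shared with EPHB6 the order of the replicates in both groups. The other genes were at distances from 0.29 to 0.40. CALB1, a calcium-binding protein, had 134 and 129 CPM in shNC and 330 and 342 CPM in sh812. CCNA1, a cyclin, had 20.9 and 18.5 CPM in shNC and 42.6 and 39.3 CPM in sh812. NTSR1, the neurotensin receptor, had 13.8 and 14.3 CPM in shNC and 33.9 and 37.0 CPM in sh812. FBXL16, an F-box protein, had 5.54 and 5.38 CPM in shNC and 11.7 and 10.6 CPM in sh812. These 5 were picked for their likeness to EPHB6, so their levels are a description.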

How the data were processed

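Poly(A) RNA libraries from PC3 cells (2 shNC, 2 sh812) were analysed from the table of raw counts per gene that the authors deposited. All values are whole numbers, and the totals differ between libraries. Per the submitters' processing notes, fastp, STAR 2.7.1a, featureCounts, DESeq2 and hg38 were used, with no role or order given. The strand setting, the annotation release and the unit behind a count (reads or read pairs) are not given in the sources used here. Overlapping genes on opposite strands may share reads.

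The test was that of edgeR 4.0.16 under R 4.3.3 (filterByExpr, TMM, glmQLFit, glmQLFTest, group only), with Benjamini-Hochberg adjustment over 16802 genes and a threshold of 0.05. SE was derived from the F statistic, and SD is over the 2 libraries of a group. Per-length levels used the union of GENCODE 29 exons. Replicates differed by more than sampling noise (chi-square per gene 8.43 in shNC and 4.51 in sh812). The code was tested on simulated counts.

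The 9 genes, the lists and the tests were chosen with earlier results of these data known. Genes named were the family, METTL3, called partners, the 3 annotated genes nearest EPHB6 on each side and the 5 genes closest to it in profile. Other genes named, such as SRC, ADAM10, GSTK1 and the markers, were chosen after their values were seen. Alternatives were DESeq2 1.42.0, RLE factors, plain library size, all genes with a count, a replicate block, removal of a lowess trend on transcript length (span 0.3) and each library left out. The summed level of the luminal prostate markers is not reported here.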

Additional observations from a re-analysis of the deposited data

How the results depend on the processing

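In the 10 alternatives, which use the same libraries EPHB6 was chosen on, its log2 fold change was 1.22 to 1.54, given as a description. EFNB3 was lower in each, from -0.97 to -0.32, and was not called without sh812 replicate 1. No label ties equal replicate numbers to a batch, and deviations of equal-numbered libraries correlated at 0.0164, so the libraries were treated as unpaired. With the replicate block, EPHB6 was at 1.37, 2 of the 9 genes were called higher (EFNB2 was added), and 2 partners were called lower in place of 1. With the length trend removed, 2 of the 9 genes were called higher. Library size alone gave 561 genes higher and 1328 lower over the table against 912 and 910, and 2 partners higher and 5 lower against 4 and 1. It moved the median of all genes to -0.05. DESeq2 called 3 partners in place of 5, with 0 lower. RLE factors and no low-count filter also gave 0 partners lower. With a library left out, the lone library of its group is assumed to vary like the other group. These fits called 313 to 3326 genes, 130 to 1743 higher and 183 to 1583 lower. They called 1 to 3 of the 9 genes, 1 to 2 higher and 0 to 2 lower. Of the other family genes they called 1 to 2, with 1 higher and 0 to 1 lower, and of the partners 0 to 11, 0 to 5 higher and 0 to 6 lower. Uncalled EPHA5, EPHA10 and EFNA5 changed sign among them, with ranges of -0.083 to 0.29, -0.17 to 1.22 and -0.11 to 0.34. EPHB2 did so too (-0.12 to 0.067), and also with the length trend removed (0.05). The cause of any of these shifts was not tested. Alternatives were tallied for 22 genes outside the 9. These were the other tested family genes, METTL3, the called partners, TRBC2 and the genes closest to EPHB6 in profile. Of their 219 values, 195 kept their call and direction, 18 lost a call, 1 gained one and 5 changed sign. An uncalled gene that stayed uncalled counts as kept, and several genes were picked by their change, so the tally is a description. For the 8 genes beside EPHB6, where no call is read, 71 of 80 values stayed within 1 SD of the replicates and 9 moved further. The SD is that of each gene's own replicates, so a gene with wide spread passes more easily. EFNB3 at -0.32 without sh812 replicate 1 was within it, and EFNA1 at 0.23 with library size alone was not. At 94 to 331 counts per library for EPHB6 and fewer for EPHA1 and EPHA10, small changes of scarce family genes can be missed.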
